A study of Arabidopsis thaliana with 4 samples.

Results

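The plastid-encoded genes of Arabidopsis thaliana are the genes of the circular chromosome that each chloroplast carries in many copies. They were taken as every row of the 4 expression tables whose gene code starts with ATCG, the prefix of the plastid genome. This rule gave 88 rows of 27416 rows in all, and 122 further rows belonged to the mitochondrial genome. The rule used no measured value.

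The libraries came from seedlings of the Col-0 ecotype that lack the endogenous blue-light photoreceptor cryptochrome 1 (genotype cry1) and carry a transgene. The first group, CNT1, has the genotype 35S::CNT1-NLS-YFP;cry1 and expresses CNT1, the photolyase-like N-terminal part of the CRY1 protein, fused to a nuclear localization signal and yellow fluorescent protein. The second group, CNT1-G283E, has the genotype 35S::CNT1-G283E-NLS-YFP;cry1 and expresses the same region with the G283E substitution. Both groups thus share the cry1 background, the 35S promoter, which is active in most plant cells, and the fused tags. All seedlings were 4.5 days old. They were grown under blue light at 15 μmol/m2/s for 4 days, after 3 days of cold and 12 h of white light. Each group had 2 libraries. The labels state neither whether the replicates were separately grown cultures nor how many independent transgenic lines they represent, so the p-values measure only the spread between these libraries, which may be technical. Neither a non-transgenic cry1 library nor a wild-type library is used here. The study asked which genes CNT1 regulates in blue light, and here that question is put to the plastid genome, class by class.

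The plastid genome encodes core subunits of both photosystems, the cytochrome b6f complex, the ATP synthase and the NDH complex, the large subunit of Rubisco, part of the plastid ribosome and 4 subunits of a bacterial-type RNA polymerase. Many other subunits of the same complexes are encoded in the nucleus and imported. The bacterial-type polymerase needs nuclear-encoded sigma factors to find its promoters, and a second, phage-type polymerase encoded in the nucleus transcribes several housekeeping genes, among them the rpoB run, accD and ycf2. Plastid transcripts are made in long polycistronic units, are trimmed and stabilized by RNA-binding proteins, and unlike nuclear transcripts carry no stable poly(A) tail: short A-rich tails mark them for decay.

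The libraries were made after selection with oligo(dT), which binds runs of A. The levels below are therefore levels of the plastid RNA that this selection kept, in RPKM, the authors' read counts scaled to gene length and library depth. Coding sequences of 4 members are shown because they hold such runs and include members called higher and a member not called. They are the 2 most abundant members, psbM (ATCG00220), which was higher in CNT1, and rpl32 (ATCG01020), which was not called different, and the stretches around the longest A runs of rpoA (ATCG00740) and rpoC2 (ATCG00170), which have the smallest and the second smallest change among the polymerase genes. Positions refer to the RefSeq plastid genome of assembly TAIR10.1. The psbM coding sequence lies at 28707 to 28811 on the minus strand and rpl32 at 113449 to 113607 on the plus strand, each as 1 uninterrupted coding exon. The stretch of rpoA lies at 78072 to 78131 and that of rpoC2 at 17903 to 17961, both on the minus strand. Runs of 5 or more A are in capitals.
psbM: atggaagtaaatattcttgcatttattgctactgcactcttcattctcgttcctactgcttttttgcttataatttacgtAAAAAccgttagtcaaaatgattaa
rpl32: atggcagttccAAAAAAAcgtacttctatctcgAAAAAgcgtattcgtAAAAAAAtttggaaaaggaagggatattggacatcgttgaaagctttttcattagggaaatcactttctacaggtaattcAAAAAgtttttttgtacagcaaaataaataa
rpoA: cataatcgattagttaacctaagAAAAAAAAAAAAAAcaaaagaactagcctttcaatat
rpoC2: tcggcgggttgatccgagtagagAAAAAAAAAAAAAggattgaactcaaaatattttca
The longest run was 5 bases in psbM, 7 in rpl32, 14 in rpoA and 13 in rpoC2, and psbM was the member of highest level. Across 86 members with a RefSeq coding sequence, Pearson's r between the longest A run and the log2 mean RPKM was -0.13 (Spearman's rho -0.04), and r between the longest A run and the log2 fold change was -0.08 (rho -0.02). For the percentage of A, r with the log2 mean RPKM was 0.20 (rho 0.26), and r between the percentage of A and the log2 fold change was -0.12 (rho -0.08). Percentage of G and C and log2 fold change had an r of 0.28 (rho 0.19). These are descriptions across genes, which share libraries and transcription units and are not independent replicates. Runs were counted in each gene's coding sequence only, so runs elsewhere in the same transcript were left out. Whether A runs led to selection was not tested.

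The CNT1 libraries held 28524534 and 28098772 reads and the CNT1-G283E libraries 27065174 and 24436863 reads, as recovered from the RPKM values. The plastid row of fewest reads, ycf15.1, still held at least 19 reads in its lowest library. This count rests on the shortest length that gave whole reads, since the row has no RefSeq coding length. Reads of the CNT1 transgene fall on the CRY1 row, together with any from the endogenous cry1 allele. This row stood at 823 and 825 RPKM in CNT1 libraries, against 1152 and 1036 RPKM in CNT1-G283E libraries. CRY1-derived RNA was thus lower in CNT1 seedlings, with a log2 fold change of -0.41 ± 0.058 (SE, CNT1 minus CNT1-G283E) and a limma adjusted p of 0.000534. Of 5 nuclear markers of green tissue, all 5 were higher in CNT1, with summed levels of 9490 and 9420 RPKM in CNT1, against 2715 and 2808 RPKM in CNT1-G283E. Of 9 root markers, 3 were lower in CNT1, among them the root-abundant beta-glucosidase PYK10, and 6 were not called. Their summed levels were 2037 and 2030 RPKM in CNT1, against 4205 and 3984 RPKM in CNT1-G283E, and no root marker was at 0 in all libraries. PYK10 made up most of these sums, with 1914 and 1905 RPKM in CNT1, against 3936 and 3686 RPKM in CNT1-G283E. Log2 fold changes of the 6 root markers not called ran from -0.41 for EXPA18 to 0.08 for EXPA7. The libraries are of whole seedlings, so more green cells and more plastid RNA per green cell cannot be told apart, and the part of tissue make-up in the plastid results was not tested.

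Plastid transcripts took a larger share of the measured RNA in both CNT1 libraries than in either CNT1-G283E library. They made up 3.53% and 3.81% of all RPKM in the CNT1 libraries, against 2.80% and 2.50% in the CNT1-G283E libraries. The mean share was 3.67% ± 0.196 (SD, n = 2) in CNT1 and 2.65% ± 0.207 (SD, n = 2) in CNT1-G283E, a difference of 1.02 percentage points. An exact two-sided permutation test gave p = 0.333, which is the smallest p that 2 libraries against 2 allow. Counted as reads, the share was 1.64% ± 0.111 (SD, n = 2) in CNT1 and 1.13% ± 0.115 (SD, n = 2) in CNT1-G283E, a ratio of 1.45. The mitochondrial rows took 0.0641% ± 0.0032 (SD, n = 2) in CNT1 and 0.0647% ± 0.013 (SD, n = 2) in CNT1-G283E.

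All 88 plastid rows passed the low-value filter, and 71 of them were called higher in CNT1 with none called lower (limma on log2(RPKM + 1), Benjamini-Hochberg adjusted p under 0.05 over 19201 genes). At an unadjusted p under 0.05, 74 were higher and 1, ccsA, was lower. Among all genes tested 31.1% were called higher in CNT1 and 29% lower, 60% in either direction, beside 80.7% of the members called higher. The members varied together between replicates, as described below, so their calls are not independent results. The median log2 fold change was 0.53 over the plastid genes, 0.02 over all genes tested and -0.03 over the 54 mitochondrial rows tested, of which 8 were higher and 3 lower. Folds were modest. At least 2-fold higher levels on the log2(RPKM + 1) scale were called for 6 members, rpoC1, rpoB, ycf3, ycf15.1, ndhB.1 and ndhB.2. Over all genes tested that share was 3.93%. Both CNT1 libraries lay above both CNT1-G283E libraries in 75 of 88 members and below in 2, rpl32 and ccsA, and the groups overlapped in 11. Over all genes tested those shares were 42.9% above and 38.1% below. The log2(RPKM + 1) scale understates the change of low genes. Of the 71 calls 63 held whichever single library was left out. The 8 that did not were psbA, psbB, psbF, psbL, petN, petL, ndhF and psaC, each lost without CNT1 replicate 1, CNT1 replicate 2 or CNT1-G283E replicate 2.

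These directions are relative to all RNA in a library. As a second scale, each library was divided by the median of its plastid rows, which moves the median log2 fold change of all genes to -0.48 and shows how the plastid RNA was divided among its own genes. Class medians on both scales are given below, and they differ in sign for photosystem II, cytochrome b6f, the NDH complex and both ribosomal subunits.

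**Figure D1:**
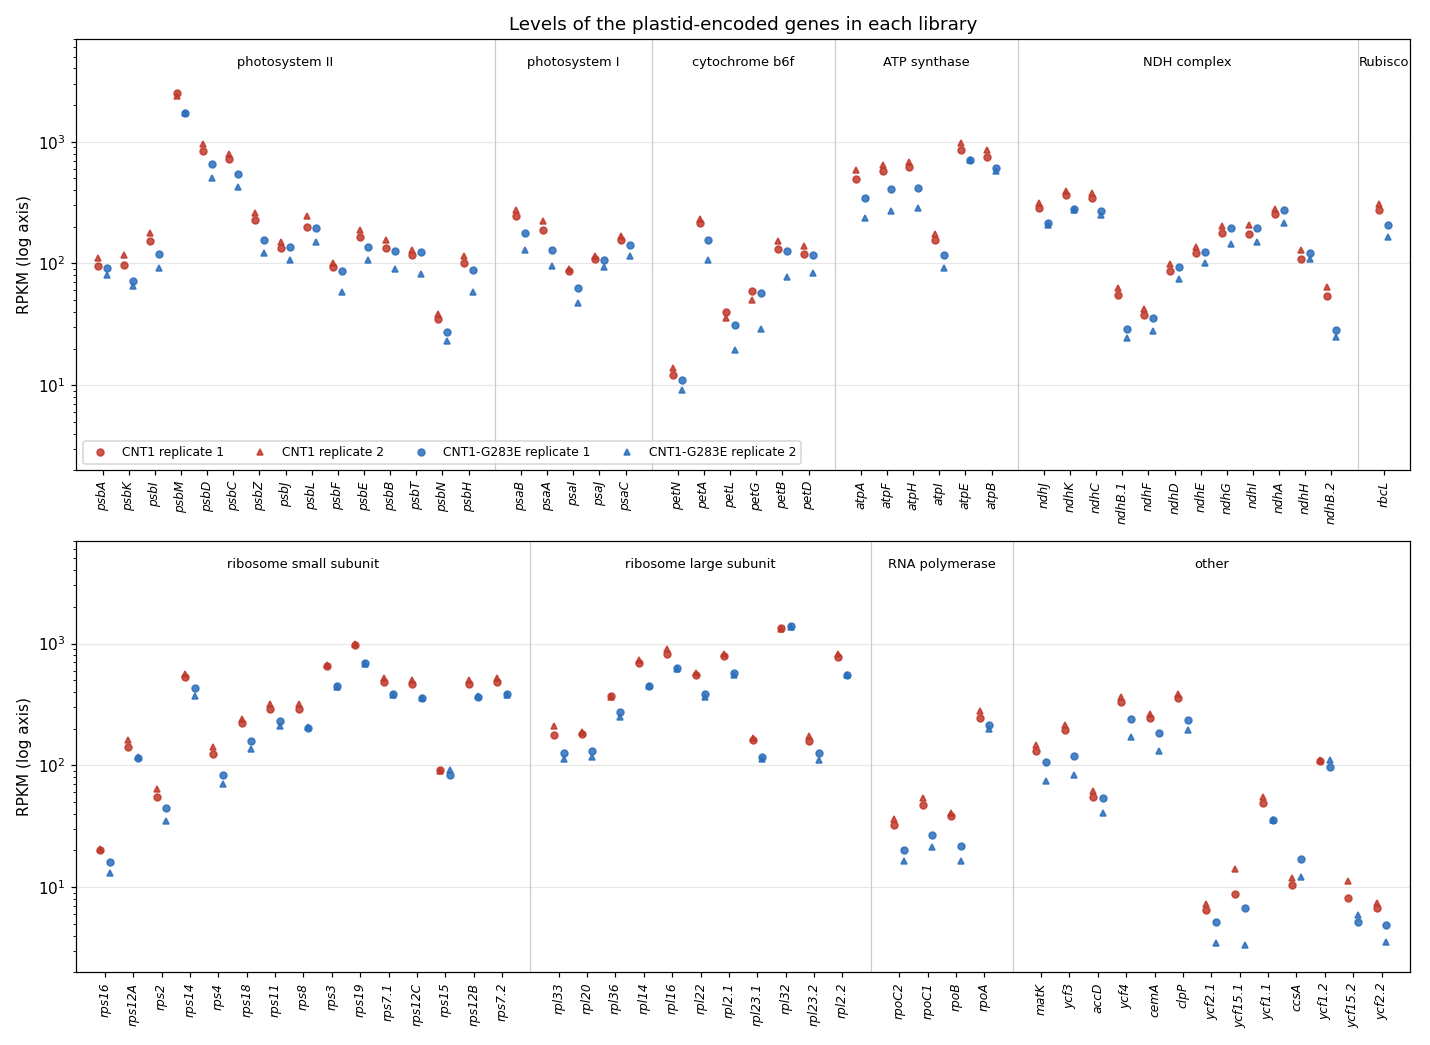
Level of each plastid-encoded gene in each library in RPKM on a logarithmic axis, by functional class, with CNT1 libraries in red to the left of CNT1-G283E libraries in blue and circles and triangles for replicates 1 and 2. Both red points lie above both blue points for 75 of 88 genes, and psbM and rpl32 have the highest levels.

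Photosystem II, which splits water, had 13 of its 15 plastid-encoded subunits higher in CNT1, with a median log2 fold change of 0.54 over a range of 0.23 to 0.83, or a median of -0.02 relative to the plastid median. The count was 8 without the intensity trend in limma or without the low-value filter. The most abundant was psbM, a small subunit at the dimer interface, with 2506 and 2373 RPKM in the CNT1 libraries, against 1715 and 1707 RPKM in the CNT1-G283E libraries. Its log2 fold change was 0.51 ± 0.052 (limma adjusted p = 8.72e-05). It was the only plastid row among the 20 rows of highest mean RPKM over the 4 libraries. The reaction centre gene psbD, which encodes the D2 protein, had 835 and 953 RPKM in CNT1, against 657 and 500.5 RPKM in CNT1-G283E, and psbC, which encodes the core antenna CP43 and overlaps psbD by 53 bases on the same strand, had 718 and 801 RPKM in CNT1, against 542 and 422 RPKM in CNT1-G283E. Both were higher in CNT1 with no overlap of the groups, by 0.64 ± 0.12 and 0.66 ± 0.11 on the log2 scale. The other reaction centre gene, psbA, which encodes the fast-turning-over D1 protein, had a smaller log2 fold change. Its levels were 95.0 and 110.4 RPKM in CNT1, against 91.2 and 80.7 RPKM in CNT1-G283E, a log2 fold change of 0.25 ± 0.080 (limma adjusted p = 0.0269). psbB, which encodes the core antenna CP47, had 134 and 157 RPKM in CNT1, against 126 and 91.0 RPKM in CNT1-G283E, a log2 fold change of 0.44 ± 0.14 (limma adjusted p = 0.0263). Both calls were lost without the intensity trend, without the low-value filter, and when either CNT1 replicate 2 or CNT1-G283E replicate 2 was left out. The largest change of the class was that of psbZ, a small subunit in the same run as psbD and psbC. It had 229 and 258 RPKM in CNT1, against 155 and 121 RPKM in CNT1-G283E, a log2 fold change of 0.83 ± 0.11 (limma adjusted p = 0.000315). The smallest was that of psbJ, a small subunit near cytochrome b559, with 134 and 149 RPKM in CNT1, against 136 and 106 RPKM in CNT1-G283E and a log2 fold change of 0.23 ± 0.11 (limma adjusted p = 0.0998). The psbJ groups overlapped, as did those of psbT, and neither was called. psbN, which lies between psbT and psbH on the opposite strand, was called higher, but whether counting used strand is not given in the sources used here, so its reads and those of the transcripts across it cannot be told apart.

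Photosystem I, which reduces ferredoxin, had 4 of 5 plastid-encoded subunits higher in CNT1, with a median log2 fold change of 0.69, or 0.13 relative to the plastid median. Its reaction centre genes psaA and psaB had the highest log2 fold changes of the class. psaB had 245 and 274 RPKM in CNT1, against 176 and 129 RPKM in CNT1-G283E, a log2 fold change of 0.77 ± 0.13 (limma adjusted p = 0.0012). psaA had 189.6 and 223 RPKM in CNT1, against 129 and 94.8 RPKM in CNT1-G283E, a log2 fold change of 0.89 ± 0.13 (limma adjusted p = 0.000738). In both genes the margin between the groups was wider than the gap between the replicates of either group. The small subunit psaJ, at 109 and 115 RPKM in CNT1, against 108 and 94.3 RPKM in CNT1-G283E, was not called (log2 fold change 0.15 ± 0.064, limma adjusted p = 0.0836).

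The cytochrome b6f complex, which passes electrons between the photosystems, gave the least settled picture, with 3 of 6 genes higher, 3 not called and a median log2 fold change of 0.45, or -0.10 relative to the plastid median. petA, which encodes cytochrome f, was both the most abundant and the most changed. It had 215 and 231 RPKM in CNT1, against 155 and 107 RPKM in CNT1-G283E, a log2 fold change of 0.79 ± 0.15 (limma adjusted p = 0.00218). The least changed was the small subunit gene petN, with 12.1 and 13.8 RPKM in CNT1, against 11.1 and 9.09 RPKM in CNT1-G283E and a log2 fold change of 0.33 ± 0.10 (limma adjusted p = 0.0243). These petN levels rest on 31 and 35 reads in CNT1 and 27 and 20 reads in CNT1-G283E, few enough for counting error to matter. petB and petD, which encode cytochrome b6 and subunit IV, and the small subunit petG were not called, with limma adjusted p from 0.0549 to 0.197. The CNT1-G283E replicates of this class differed by a median of 41.4% of their mean, the widest replicate gap of any class. Without CNT1-G283E replicate 1 all 6 genes were called higher, and 2 were when CNT1 replicate 2 or CNT1-G283E replicate 2 was left out. Without the intensity trend or the low-value filter 1 was.

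The ATP synthase was higher in CNT1 in all 6 of its plastid-encoded subunits, with a median log2 fold change of 0.77, or 0.20 relative to the plastid median. The class falls into 2 runs that changed by different amounts. The catalytic-head gene atpA had 494 and 585 RPKM in CNT1, against 344 and 237 RPKM in CNT1-G283E (log2 fold change 0.91 ± 0.16, limma adjusted p = 0.00148). The proton-ring gene atpH, in the same run, had 623 and 687 RPKM in CNT1, against 418 and 285 RPKM in CNT1-G283E (log2 fold change 0.92 ± 0.15, limma adjusted p = 0.00115). Together with atpI, atpF and rps2 these genes had a median log2 fold change of 0.86. In the other run, the catalytic subunit gene atpB had 756 and 857 RPKM in CNT1, against 604 and 578 RPKM in CNT1-G283E (log2 fold change 0.44 ± 0.064, limma adjusted p = 0.000567). Its partner atpE, the most abundant gene of the class, had 853 and 979 RPKM in CNT1, against 706 and 702 RPKM in CNT1-G283E (log2 fold change 0.38 ± 0.065, limma adjusted p = 0.0016). atpE and atpB overlap by 4 bases and could share reads.

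rbcL, which encodes the CO2-fixing large subunit of Rubisco, had 275 and 308 RPKM in CNT1, against 207 and 165 RPKM in CNT1-G283E. The groups did not overlap, and the log2 fold change was 0.65 ± 0.10 (limma adjusted p = 0.0009), or 0.09 relative to the plastid median.

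**Figure D2:**
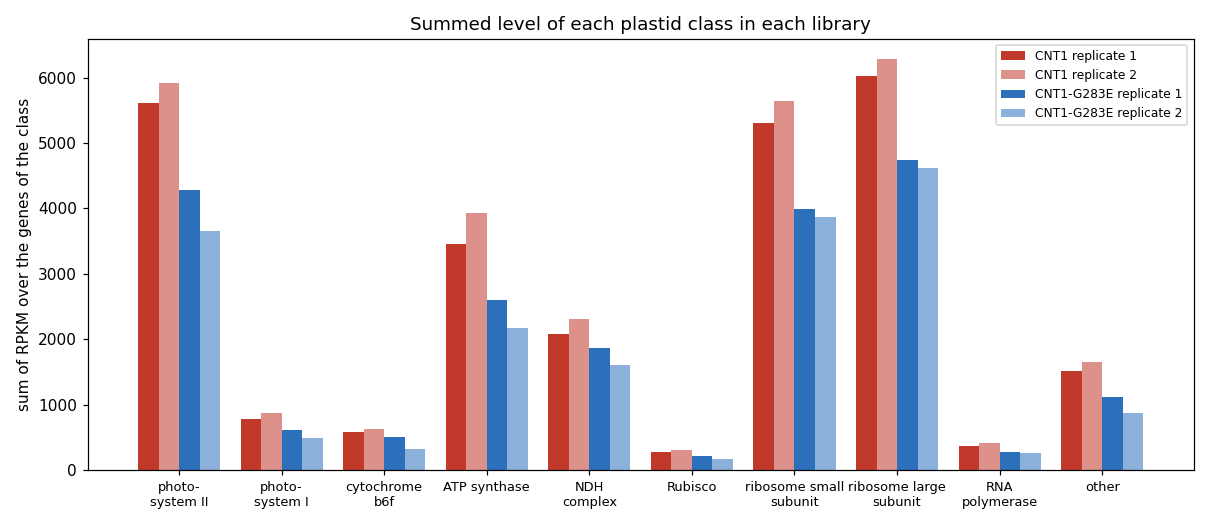
Sum of RPKM over the genes of each plastid class in each library, with bars from 0 for CNT1 replicates 1 and 2 in red tones left of CNT1-G283E replicates 1 and 2 in blue tones. Both CNT1 bars exceed both CNT1-G283E bars in every class on this scale of all RNA, and the NDH complex has the smallest ratio of group sums, 1.27.

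The NDH complex, which returns electrons from ferredoxin to the plastoquinone pool, divided by genome position. Of its 12 rows 6 were higher and 6 were not called, and the median log2 fold change was 0.26 over a range of 0.05 to 1.12, or a median of -0.29 relative to the plastid median. The 3 adjacent genes ndhC, ndhK and ndhJ of the large single-copy region were all higher, with a median of 0.47. The most abundant of them and of the class, ndhK, had 368 and 396 RPKM in CNT1, against 278 and 276 RPKM in CNT1-G283E (log2 fold change 0.46 ± 0.046, limma adjusted p = 7.59e-05). The inverted-repeat gene ndhB, present as 2 copies, had the highest log2 fold change of the plastid genes on the log2(RPKM + 1) scale. By ratio of mean RPKM, ycf15.1, a row of few reads, was slightly higher at 2.26. The first copy of ndhB had 54.6 and 62.8 RPKM in CNT1, against 28.8 and 24.2 RPKM in CNT1-G283E, 2.22 times the level (log2 fold change 1.12 ± 0.091, limma adjusted p = 2.44e-05). The copies are near-identical in sequence, so the pair is 1 observation. Of the 7 NDH genes in the small single-copy region only ndhF was called. It had 37.9 and 42.2 RPKM in CNT1, against 35.8 and 28.0 RPKM in CNT1-G283E (log2 fold change 0.33 ± 0.11, limma adjusted p = 0.0288). ndhH, the least changed, had 109 and 129 RPKM in CNT1, against 121 and 109 RPKM in CNT1-G283E, and its groups overlapped (log2 fold change 0.05 ± 0.082, limma adjusted p = 0.612). Without CNT1-G283E replicate 1 the class had 11 genes called higher, and over the other single libraries left out it had 5 or 6.

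The plastid ribosome was higher in CNT1 in 14 of 15 small-subunit rows, with a median log2 fold change of 0.45, and in 10 of 11 large-subunit rows, with a median of 0.53. Relative to the plastid median these medians were -0.11 and -0.04. The replicates were closest here: the CNT1-G283E replicates differed by a median of 2.89% in the small and 3.66% in the large subunit. rps19, the most abundant small-subunit gene, had 981 and 1000.3 RPKM in CNT1, against 687 and 685 RPKM in CNT1-G283E (log2 fold change 0.53 ± 0.042, limma adjusted p = 2.07e-05). rps4, whose bacterial counterpart binds early in ribosome assembly, changed most, with 125 and 142 RPKM in CNT1, against 83.6 and 70.7 RPKM in CNT1-G283E (log2 fold change 0.79 ± 0.086, limma adjusted p = 0.000128). rpl33 changed most in the large subunit, with 177 and 209 RPKM in CNT1, against 126 and 113 RPKM in CNT1-G283E (log2 fold change 0.68 ± 0.082, limma adjusted p = 0.00021). In each of these genes both CNT1 libraries were the higher ones. The rows not called were both in the small single-copy region. rps15 had 92.2 and 90.1 RPKM in CNT1, against 83.7 and 91.3 RPKM in CNT1-G283E, and its groups overlapped (log2 fold change 0.06 ± 0.050, limma adjusted p = 0.345). rpl32, whose whole coding sequence is printed above, had 1347 and 1329.8 RPKM in CNT1, against 1384 and 1381 RPKM in CNT1-G283E (log2 fold change -0.05 ± 0.045, limma adjusted p = 0.398). Its CNT1 libraries were the lower ones, although by a small amount, and its level was second only to that of psbM. rps12 is trans-spliced and is listed as 3 rows, its first exon and the 2 copies of its other exons, and all were called higher.

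The bacterial-type RNA polymerase was higher in CNT1 in all 4 core subunits and had the largest class median, 0.95, or 0.41 relative to the plastid median. The 3 genes of the rpoB run changed by similar amounts. rpoB, which encodes the beta subunit, had 38.2 and 40.6 RPKM in CNT1, against 21.9 and 16.2 RPKM in CNT1-G283E (log2 fold change 1.02 ± 0.12, limma adjusted p = 0.000162). rpoC1, which encodes the beta' subunit, had 47.0 and 53.5 RPKM in CNT1, against 26.9 and 21.4 RPKM in CNT1-G283E (log2 fold change 1.04 ± 0.10, limma adjusted p = 8.11e-05). rpoC2, which encodes the beta'' subunit, had 32.6 and 36.1 RPKM in CNT1, against 20.1 and 16.4 RPKM in CNT1-G283E (log2 fold change 0.88 ± 0.094, limma adjusted p = 0.000106). Summed over the run the CNT1 level was 2.02 times the CNT1-G283E level, and no library of one group overlapped the other. rpoA, which encodes the alpha subunit and ends the ribosomal protein run, was more abundant and changed less, with 244 and 277 RPKM in CNT1, against 213 and 200.2 RPKM in CNT1-G283E (log2 fold change 0.33 ± 0.063, limma adjusted p = 0.00264).

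Of the 13 rows with other roles 10 were higher and 3 were not called, with a median log2 fold change of 0.64, or 0.15 relative to the plastid median. clpP, which encodes the proteolytic subunit of the plastid Clp protease, was the most abundant, with 358 and 385 RPKM in CNT1, against 236 and 196 RPKM in CNT1-G283E (log2 fold change 0.79 ± 0.082, limma adjusted p = 9.6e-05). ycf3, which encodes a photosystem I assembly factor, had 195 and 214 RPKM in CNT1, against 120.3 and 82.9 RPKM in CNT1-G283E (log2 fold change 1.02 ± 0.15, limma adjusted p = 0.000549). matK, which encodes the intron maturase, had 130.3 and 148 RPKM in CNT1, against 106 and 74.7 RPKM in CNT1-G283E (log2 fold change 0.64 ± 0.14, limma adjusted p = 0.00537). clpP, ycf3 and matK were thus all called higher in CNT1. accD, which encodes a subunit of the acetyl-CoA carboxylase of fatty acid synthesis, was not called, with 54.7 and 61.4 RPKM in CNT1, against 54.3 and 40.8 RPKM in CNT1-G283E (log2 fold change 0.30 ± 0.12, limma adjusted p = 0.0647). The low-abundance import-associated gene ycf2 had 6.49 and 7.24 RPKM in its first copy in CNT1, against 5.15 and 3.45 RPKM in CNT1-G283E (log2 fold change 0.59 ± 0.15, limma adjusted p = 0.0107). The full-length copy of ycf1, which reaches from the small single-copy region into the inverted repeat and encodes a protein of the inner-envelope import machinery, had 109 and 110.4 RPKM in CNT1, against 96.7 and 111 RPKM in CNT1-G283E, and was not called (log2 fold change 0.09 ± 0.062, limma adjusted p = 0.267). The short copy ycf1.1, which holds only the inverted-repeat end, was called higher at 49.0 and 54.7 RPKM in CNT1, against 35.4 and 35.3 RPKM in CNT1-G283E (log2 fold change 0.54 ± 0.059, limma adjusted p = 0.000128). The cytochrome c assembly gene ccsA was the member with the lowest log2 fold change. It had 10.3 and 12.0 RPKM in CNT1, against 17.0 and 12.1 RPKM in CNT1-G283E, a log2 fold change of -0.34 ± 0.14 (limma adjusted p = 0.0667). It was called lower when either CNT1 replicate 2 or CNT1-G283E replicate 2 was left out, and those are the libraries in which its levels were nearly equal.

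Along the genome the genes of 1 region stood apart from the rest. A grouping by region and by run of neighbouring genes was made after the values were seen, so it is given as a description with no test. The large single-copy region held 61 members, of which 54 were higher, with a median log2 fold change of 0.58. All 15 rows of the inverted repeat were higher, with a median of 0.53, but 7 loci are counted there as 2 rows each. Of the 12 members in the small single-copy region 2, ndhF and psaC, were higher, and the median was 0.14 over a range of -0.34 to 0.34. The summed level of these 12 genes was 2680 and 2811 RPKM in CNT1, against 2767 and 2531 RPKM in CNT1-G283E. The groups overlapped and the ratio of means was 1.04. Over the 76 genes outside that region the sums were 23313 and 25120 RPKM in CNT1, against 17422 and 15473 RPKM in CNT1-G283E, a ratio of 1.47. The count in the small single-copy region rested on single libraries: without CNT1-G283E replicate 1 it was 7, without CNT1-G283E replicate 2 it was 3, without CNT1 replicate 2 it was 0, and without CNT1 replicate 1 it stayed at 2. It was 0 without the intensity trend and 1 without the low-value filter. The median there was -0.03 without CNT1-G283E replicate 2 and 0.31 without CNT1-G283E replicate 1, against 0.45 and 0.72 in the large single-copy region under the same settings.

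Log2 fold changes of genes next to each other on the same strand differed by a median of 0.10 over 62 pairs, of next genes on opposite strands by 0.21 over 23 pairs, and of all pairs of placed plastid genes by 0.24 over 3655 pairs. Some runs were close in value and others were not. The rpoB run had a median of 1.02 and the run of rps2 and 4 ATP synthase genes a median of 0.86. The run of psaA, psaB and rps14 had a median of 0.77 and a range of 0.45 to 0.89. The run of psaI, ycf4, cemA and petA had a median of 0.74. The run of psbD, psbC and psbZ had a median of 0.66. The 11 genes from rpl23 to rpoA were all higher, with a median of 0.53 and a range of 0.33 to 0.67. In the psbB run 2 of 5 genes were higher, with a median of 0.44. In the run from rps15 to ndhD 1 of 8 genes was higher, with a median of 0.15. Wide differences between neighbours also occurred: the run of petL, petG, psaJ, rpl33 and rps18 ranged from 0.15 for psaJ to 0.68 for rpl33, and that of ndhB, rps7 and rps12 from 0.39 for rps7 to 1.12 for ndhB.

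**Figure D3:**
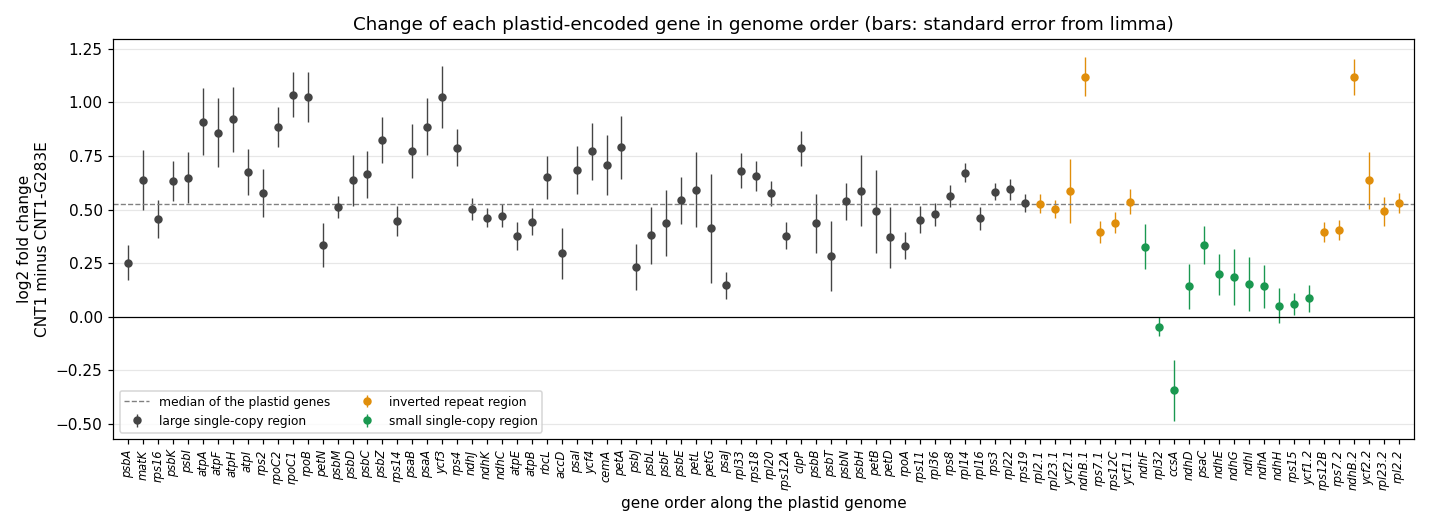
Log2 fold change (CNT1 minus CNT1-G283E, on the log2(RPKM + 1) scale) of the 86 placed plastid genes in genome order, with bars for the limma standard error, colours for the genome region and a dashed line at the plastid median of 0.53. The small single-copy genes lie between -0.34 and 0.34, and neighbours elsewhere are close in some runs and far apart in others, such as ndhB at 1.12 beside rps7 at 0.39.

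Relative to the plastid median, 7 members were higher in CNT1, namely rpoC1, rpoB, ycf3, atpH, ycf15.1 and both ndhB copies, and 11 were lower, beside 5.34% of all genes higher and 60.6% lower. Of the 11 lower members 10 lay in the small single-copy region, and the other was psaJ. The 10 were rpl32, ccsA, ndhD, ndhE, ndhG, ndhI, ndhA, ndhH, rps15 and ycf1.2, which thus took a smaller part of the plastid RNA in CNT1 than in CNT1-G283E. The scaling divisors differed between replicates, 1.16 and 1.28 in CNT1, against 0.89 and 0.76 in CNT1-G283E. This adds spread to the nuclear genes, from which limma largely borrows the spread of each gene. The standard error of ndhK was 0.17 on this scale, beside 0.046 on the main scale. The calls on this scale depend on that spread, and no library was left out on it.

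Plastid levels varied together between replicates. CNT1 replicate 2 lay above CNT1 replicate 1 in 82 of 88 members, and CNT1-G283E replicate 1 lay above CNT1-G283E replicate 2 in 81 of 88. The median gap between replicates was 10.5% of the mean in CNT1 and 20% in CNT1-G283E, beside 3.82% and 5.42% for nuclear genes of at least 5 RPKM. The members are therefore not independent observations of the difference between groups. The spread that limma borrows comes mostly from nuclear genes, whose replicates were closer, so standard errors of the plastid rows may be too small.

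Most genes of the inverted repeat come in 2 near-identical copies whose reads cannot be assigned to one of them, and how such reads were counted is not given in the sources used here. In 6 of 7 pairs the ratio of the copies lay between 0.931 and 1.05 over 24 library values. The ycf15 copies differed more, with ratios from 0.559 to 1.30. ycf15.1 had 8.84 and 13.99 RPKM in CNT1, against 6.79 and 3.32 RPKM in CNT1-G283E, and ycf15.2 had 8.09 and 11.3 RPKM in CNT1, against 5.21 and 5.95 RPKM in CNT1-G283E. With copies summed to 1 row per gene, 64 of 81 genes were higher. rps3 and rpl22 share 16 bases on the same strand, and ycf1.1 and ndhF share 39 bases on opposite strands.

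The nuclear genes that build or run the same machinery were compared from lists of 108 genes, chosen for their roles with earlier results of these data known. Of these, 104 were higher in CNT1 and none was lower, also at an unadjusted p under 0.05, with a median log2 fold change of 1.06. Among all 19059 nuclear genes tested, 5885 were called higher and 5563 lower, with a median of 0.02. All 13 nuclear photosystem I genes were higher, with a median of 1.23 beside 0.69 for the plastid-encoded ones, and all 10 nuclear photosystem II genes, with a median of 1.08 beside 0.54. The nuclear-encoded changes were the larger ones here, and likewise in the 31 plastid ribosomal protein genes, all higher, with a median of 1.17 beside 0.50 over the 26 plastid ribosomal rows. For Rubisco, RBCS1A, the main small-subunit gene, had 4912 and 4871 RPKM in CNT1, against 1581 and 1664 RPKM in CNT1-G283E. All 4 small-subunit genes were higher, with a median of 1.52 beside 0.65 for rbcL. Of 13 nuclear NDH genes 12 were higher, with a median of 0.89 beside 0.26. The largest change among them was that of PNSL1, a lumenal subunit, with 39.0 and 39.0 RPKM in CNT1, against 7.53 and 9.57 RPKM in CNT1-G283E, and NDHS, the ferredoxin-docking subunit, was the one not called. The ATP synthase was an exception in order, with 3 of 3 nuclear genes higher and a median of 0.63 beside 0.77. So was the RNA polymerase, with a median of 0.92 for its 12 associated proteins beside 0.95. Both nuclear cytochrome b6f genes, PETC and PETM, were higher, with a median of 0.58 beside 0.45. No difference between plastid and nuclear medians was tested.

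**Figure D4:**
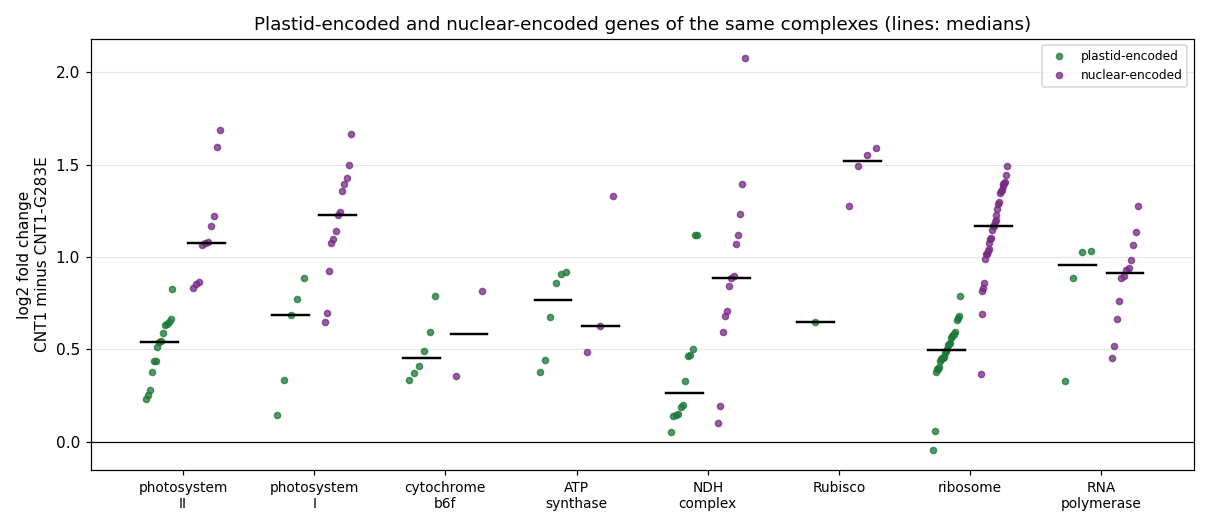
Log2 fold change (CNT1 minus CNT1-G283E, on the log2(RPKM + 1) scale) of plastid-encoded genes in green beside nuclear-encoded genes in purple for each complex, with lines at the medians; the nuclear points of the RNA polymerase are its 12 associated proteins. Nuclear medians lie above plastid ones except for the ATP synthase, 0.63 beside 0.77, and the RNA polymerase, 0.92 beside 0.95.

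The nuclear regulators of plastid transcription were mostly higher. Of 6 sigma factors 5 were higher in CNT1, with a median log2 fold change of 0.54. SIG6, which acts in early seedling plastids, had 32.5 and 31.8 RPKM in CNT1, against 16.4 and 17.6 RPKM in CNT1-G283E (log2 fold change 0.88 ± 0.056, limma adjusted p = 6.21e-06). SIG3 changed least of those called, with 18.8 and 18.7 RPKM in CNT1, against 14.1 and 13.7 RPKM in CNT1-G283E. SIG5, the blue-light-responsive factor that drives psbD, was not called, with 8.03 and 8.21 RPKM in CNT1, against 9.22 and 9.16 RPKM in CNT1-G283E (log2 fold change -0.16 ± 0.071, limma adjusted p = 0.0865). Both CNT1 libraries of SIG5 were below both CNT1-G283E libraries, as in 38.1% of all genes tested. psbD was higher in CNT1, and no link between SIG5 and psbD was tested. Of the phage-type polymerases, RPOTP had 6.80 and 6.94 RPKM in CNT1, against 3.05 and 3.79 RPKM in CNT1-G283E (log2 fold change 0.84 ± 0.11, limma adjusted p = 0.000284). RPOTMP, which serves mitochondria as well, had 2.82 and 2.62 RPKM in CNT1, against 2.41 and 2.93 RPKM in CNT1-G283E and was not called. All 12 proteins that associate with the bacterial-type polymerase were higher, from MURE at 0.45 to the superoxide dismutase FSD3 at 1.27, with a median of 0.92. Of 12 factors of plastid RNA stability and processing 11 were higher, with a median of 0.92. The RNA-binding protein CP29A, with 437 and 443 RPKM in CNT1, against 154 and 171 RPKM in CNT1-G283E, changed most, and the endoribonuclease RNE, with 9.91 and 10.8 RPKM in CNT1, against 10.1 and 9.63 RPKM in CNT1-G283E, was not called.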

How the data were processed

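Bulk RNA-seq of 4 libraries was analysed, 2 each of CNT1 and CNT1-G283E, as RPKM values deposited by the authors, 1 table per library. RNA was extracted with a plant kit, treated with DNase I and selected with oligo(dT) beads, per the labels' protocols. Bowtie2 2.2.2 and TAIR10 are named in the submitters' processing notes. How reads were counted, with or without strand and with which treatment of multiple matches, is not given in the sources used here, and this affects plastid rows in the inverted repeat or on overlapping genes.

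Library read totals were recovered from the RPKM values and the summed RefSeq exon lengths of nuclear genes with a single transcript length. The search took the total that made the most such rows whole reads within 0.002 reads. The files list plastid genes by ATCG code only. Symbols were assigned from TAIR nomenclature and checked by length: 81 of 88 rows came out as whole reads in every library at the RefSeq coding length of the named gene, and 58 of them at no other plastid coding length. The 7 others (matK, ycf3, both ndhB and both ycf15 rows, and ndhD) rest on the code alone. Coordinates and sequences are RefSeq's for TAIR10.1 (plastid length 154478 bases). Regions were set by the inverted repeat found in that sequence. The large single-copy region ends at 84170 and the small one spans 110435 to 128214.

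Genes that reached 1 RPKM in 2 or more of the libraries entered a limma 3.58.1 fit (R 4.3.3) on log2(RPKM + 1), with intensity trend and Benjamini-Hochberg adjustment over 19201 genes, and the code was tested on simulated data. Summaries used Python 3.11.15. Alternatives were quantile, upper-quartile, median-of-ratios, organelle-free and plastid-median scaling, other filters, a pseudocount of 0.1, no trend, a replicate block and each library left out. The members, gene lists and tests were chosen with earlier results of these data known. Values are given for the most abundant and the most and least changed gene of each class, for further genes of well-known function, and for copies that differ. ycf3, rps14, CRY1 and the genes listed by run were named after their values were seen.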

Additional observations from a re-analysis of the deposited data

How the results depend on the processing

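The number of plastid genes called higher in CNT1, 71 of 88, was between 62 (limma without the trend) and 71 over the 9 other scalings, filters, pseudocounts and models, and between 64 and 83 with a single library left out. The number called lower was 0 in all of these except that it was 1 (ccsA) without CNT1 replicate 2 or CNT1-G283E replicate 2, so it ranged from 0 to 1 over the libraries left out. Among these other settings, class counts that moved by over 1.5 times were those of photosystem II, 8 of 15 without the trend or without the filter, beside 13, and of cytochrome b6f, 1 of 6 under the same settings, beside 3. None of the 12 small single-copy genes was called higher without the trend, beside 2, and 1 was without the filter. With a library left out, cytochrome b6f had 2 to 6 genes called higher, the NDH complex 5 to 11, beside 6, and the small single-copy region 0 to 7. The highest of each of these counts came without CNT1-G283E replicate 1, and the lowest without CNT1 replicate 2, shared for cytochrome b6f and the NDH complex with CNT1-G283E replicate 2.

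Scaling to the plastid median by construction centres the plastid genes and turned the class medians to -0.017 for photosystem II, -0.110 and -0.038 for the small and large ribosomal subunits, -0.10 for cytochrome b6f and -0.29 for the NDH complex. It moved them to 0.15 for other roles, 0.20 for the ATP synthase, 0.41 for the RNA polymerase, 0.13 for photosystem I and 0.088 for Rubisco. With 1 library left out, the cytochrome b6f median ranged from 0.17 to 0.87 (0.17 without CNT1-G283E replicate 2 and 0.87 without CNT1-G283E replicate 1). The cause was not tested. The difference in plastid share was 0.512 percentage points as a share of recovered reads and 1.05 without the 20 most abundant genes.

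Genes not called in the main analysis changed sign when a library was left out. Their log2 fold changes ranged from -0.061 to 0.887 for petG, -0.020 to 0.583 for psbT, -0.026 to 0.309 for ndhD, -0.041 to 0.413 for ndhG, -0.049 to 0.351 for ndhI, -0.027 to 0.312 for ndhA, -0.067 to 0.171 for ndhH, -0.0033 to 0.121 for rps15, -0.010 to 0.180 for ycf1.2 and -0.081 to 0.122 for RPOTMP. No called member changed sign under the other scalings, filters, pseudocount and models or with a library left out, plastid-median scaling aside. A left-out library leaves 1 in its group, whose spread is assumed to be like that of the other group.

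The replicate numbers are shared by the groups but nothing ties them to a batch or day. Deviations of same-numbered libraries had a correlation of -0.05 over 14404 genes and -0.16 over the plastid genes. With the replicate block 71 members were called higher, with petG gained and psbL lost, and 104 of the 108 nuclear partner genes. With the crossed pairing, chosen after seeing the data, 83 members were higher and 1 lower.

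Counting error bears on the rows of fewest reads, petN with 20 to 35 reads a library and the ycf15 copies with 19 to 92. The ycf15 counts rest on the shortest length that gave whole reads, and are the lowest counts possible. Also, 2 libraries a group leave the spread of each gene largely borrowed from other genes, and RPKM after oligo(dT) selection measures only the plastid RNA that it kept.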
